A study of Mus musculus with 8 samples.

Results

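The genes described here are the ligands, receptors, modulators and effectors of Wnt signalling measured by RNA sequencing of mouse peripheral retina. The embryos were C57BL/6 and taken at embryonic day 16.5. The genes were chosen by symbol: the Wnt, Fzd, Sfrp, Dkk, Rspo, Axin, Nkd and Dvl families and 15 further named genes such as Lef1, Ctnnb1 and Notum. The deposited table of 16096 genes holds 46 of them, the other 17 genes of the mouse annotation with such symbols were not analysed here, and 43 of the 46 had enough counts to be tested. The groups were 4 libraries of genotype Pax6alpha-Cre:Ezh2fl/null, called cKO below, and 4 of genotype Pax6alpha-Cre:Ezh2fl/+, called control. Both groups carried the Pax6alpha-Cre driver, which is active in the peripheral retina, and 1 Ezh2 allele flanked by loxP sites. The second Ezh2 allele was null in the cKO embryos and wild type in the controls. Ezh2 is the methyltransferase of Polycomb repressive complex 2, which places a repressive methyl mark on histone H3. Cells in which Cre did not act kept a working allele in both groups but also carried the null allele in the cKO embryos. The comparison asks which transcripts of the developing retina differ between these genotypes.

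Wnt proteins are lipid-modified ligands that bind Frizzled receptors. With the co-receptors Lrp5 and Lrp6 they act through Dishevelled to stop the Axin complex from degrading beta-catenin, which then enters the nucleus and works with Lef1 and the Tcf factors. Other Wnt proteins, such as Wnt5a, act mostly without beta-catenin, on cell polarity and movement. In the eye, beta-catenin signalling is known for its role at the rim of the optic cup, where it favours ciliary margin over neural retina, and it is held in check by secreted inhibitors. Several genes that beta-catenin activates, among them Axin2, Notum and Rnf43, encode inhibitors of the pathway and so form a feedback loop.

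Total counts ran from 13994825 to 18391647 per library. The whole-gene Ezh2 level was 251 ± 23.1 CPM (counts scaled to a common normalized library size; SD, n = 4) in the cKO libraries and 217 ± 18.1 CPM (SD, n = 4) in the controls, at log2 0.21 (edgeR adjusted p = 0.0701). It was thus not lower in the libraries labelled cKO, and a whole-gene count does not check a deletion of part of the gene, so each direction below is that of the labels. The cKO replicates 2 and 3 had 0.766 and 0.787 CPM of 4 Y-linked genes, and the other 6 libraries had 196 to 231 CPM. The defining retinal progenitor genes Pax6, Rax, Sox2, Hes1 and Six6 were all well counted, with a summed level of 1386 to 1400.4 CPM in the cKO libraries and 1462 to 1492 CPM in the controls, and 0 of 5 called. The labels name no embryo or litter for any library. By these counts the cKO libraries did not all come from 1 embryo, and for the controls this cannot be told. A p-value here therefore covers the spread of these libraries, which may be technical among the controls and in part among the cKO libraries.

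A larger share of Wnt genes than of all genes was called, and nearly all of the calls were higher in cKO. Among the 43 genes tested there were 13 higher in cKO, 1 lower and 29 that did not pass at an adjusted p under 0.05 (edgeR quasi-likelihood test, Benjamini-Hochberg adjustment over 15014 genes). That is 32.6% of the members, where 11.8% of all genes tested were called. The shares called in each direction over all genes were 8.35% for higher and 3.46% for lower. The median log2 fold change of the tested members was 0.07, and that of all tested genes was -0.01. In 15 of the 43 members each cKO library lay above each control, and in 2 each lay below, against 10.1% and 6.21% of all genes tested. The 6 libraries with Y-linked counts, called male below, alone gave 9 higher and 0 lower members, with 9 of the 14 calls kept, and leaving out the 2 libraries with the most lens crystallin (control replicate 1 and cKO replicate 2) gave 11 and 1. The male libraries were cKO replicates 1 and 4 and all 4 controls. With no female control, a sex covariate rests on the cKO libraries alone. That fit also gave 9 higher and 0 lower, and is not a separate check from the male libraries. Of the 14 calls, 8 held in each of 18 alternative analyses: Wnt5a, Wnt5b, Fzd6, Sfrp1, Notum, Rnf43, Nkd2 and Lef1.

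**Figure D1:**
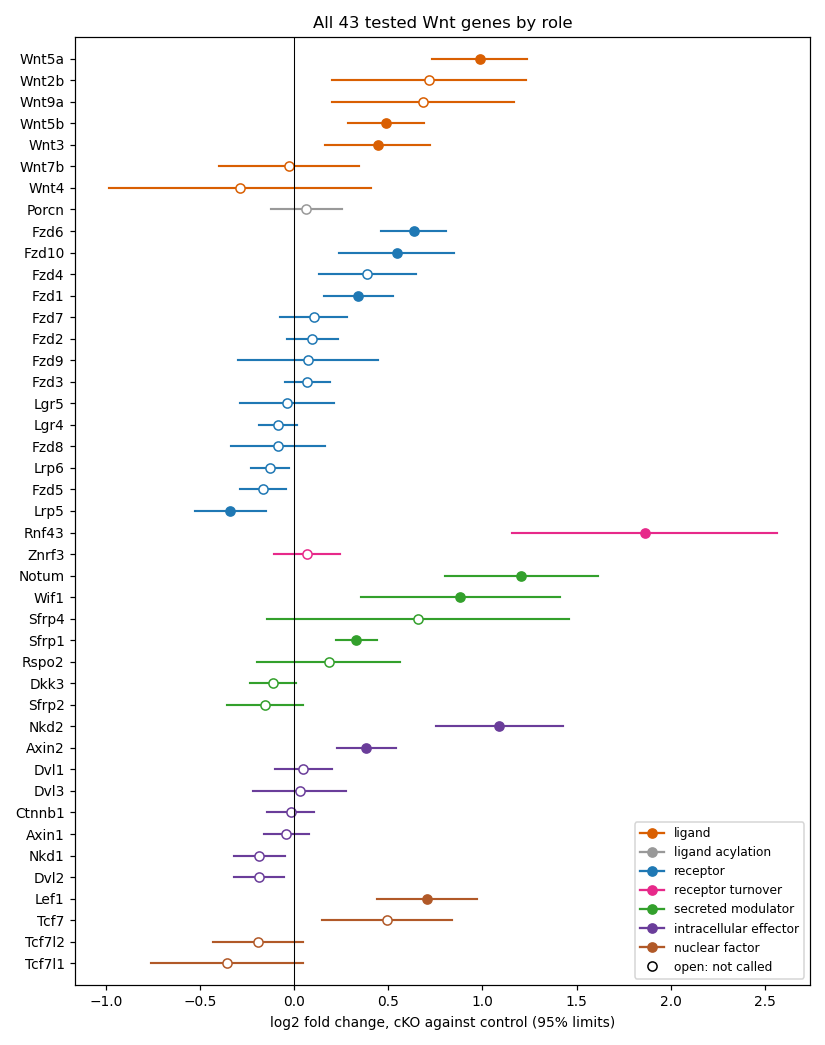
Log2 fold change of cKO against control for the 43 tested Wnt genes, grouped by role, with 95% limits as lines; filled points are called at an adjusted p under 0.05 and open points are not. The 13 higher calls lie in 6 of the 7 roles, and Lrp5 is the lower call.

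Promoters of 29 of the 46 genes were found in a RefSeq table (GRCm38.p6), taken at the most upstream start where a gene has several. Polycomb repressive complex 2 is known to favour promoters rich in CpG dinucleotides. No histone mark was examined here, and the part of the complex at these genes was not tested. As examples from the 9 higher genes with a promoter found, 3 are shown with each CpG in capitals, as the 250 bases upstream of the transcription start. They are Axin2 (chr11:108920099-108920348, plus strand), Nkd2 (chr13:73847632-73847881, minus strand) and Wnt5b (chr6:119544348-119544597, minus strand), each read 5′ to 3′ on the strand of its gene.

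Axin2: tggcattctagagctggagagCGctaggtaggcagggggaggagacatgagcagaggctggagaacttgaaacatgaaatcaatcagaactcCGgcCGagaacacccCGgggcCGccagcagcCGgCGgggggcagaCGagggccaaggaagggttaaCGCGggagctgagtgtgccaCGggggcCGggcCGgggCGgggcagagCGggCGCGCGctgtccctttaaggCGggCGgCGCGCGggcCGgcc
Nkd2: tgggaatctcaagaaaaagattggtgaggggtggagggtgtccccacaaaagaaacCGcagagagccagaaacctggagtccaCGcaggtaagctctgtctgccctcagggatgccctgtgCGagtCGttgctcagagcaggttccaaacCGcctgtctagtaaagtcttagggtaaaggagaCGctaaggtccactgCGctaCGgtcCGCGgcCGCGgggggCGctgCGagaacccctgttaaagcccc
Wnt5b: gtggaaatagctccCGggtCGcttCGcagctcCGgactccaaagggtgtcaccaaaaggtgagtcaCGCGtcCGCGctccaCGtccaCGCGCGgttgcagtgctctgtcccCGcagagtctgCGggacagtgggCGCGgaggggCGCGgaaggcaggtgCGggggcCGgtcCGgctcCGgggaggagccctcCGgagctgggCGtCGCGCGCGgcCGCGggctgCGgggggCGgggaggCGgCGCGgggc

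These windows hold 24 CpGs in Axin2, 14 in Nkd2 and 35 in Wnt5b. The median over the 29 Wnt gene promoters, among them the untested Wnt11, Wnt7a and Dkk1, was 25 CpGs, with a range of 6 to 48. Over 10378 tested genes with a promoter in the table it was 16, and over all 27025 genes with one it was 6. The 9 promoters of higher members had a median of 21 CpGs and the 17 of uncalled members a median of 29. Some of these windows reach into the gene as annotated in GENCODE M21. Those of Nkd1, Ctnnb1, Rnf43 and Fzd10 end 6279, 4184, 365 and 262 bases past its start. For Lef1, Fzd1 and Fzd7 the bases after the RefSeq start matched no GENCODE transcript of the gene. The 3 windows printed above have neither limit. In the same windows the core letters bound by Tcf and Lef factors were searched on both strands, first CTTTGAT, next its close variant CTTTGTT, then the variant CTTTGAA and last the variant CTTTGTA. They were found in 3 of the 29 promoters (Fzd7, Wnt11 and Dkk1), or 10.3%, and in 14.9% of all 27025 genes with a promoter. Wnt11 and Dkk1 had too few counts to be tested. Among the tested members only Fzd7 held the letters, where 10.1% of the tested genes did. None of the 9 promoters of higher members held these letters, which says only that they are not in these windows.

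The ligand genes Wnt5a, Wnt5b and Wnt3 rose. Gene positions here and below are from GENCODE M21 on mm10. Of the 9 ligand genes in the table, 7 were tested. There were 3 higher, 0 lower and 4 not called (all genes: 8.35% higher, 3.46% lower), with a median log2 fold change of 0.49. Wnt5a (chr14:28504750-28527448, plus strand), best known for signalling without beta-catenin, had levels of 10.05, 11.8, 10.8 and 9.76 CPM in the cKO libraries and 4.87, 4.65, 6.66 and 5.18 CPM in the control libraries, always listed from replicate 1 to replicate 4. The lowest cKO library was thus well above the highest control, at log2 0.98 with an SE of 0.12 and 95% limits of 0.73 to 1.24 (edgeR adjusted p = 5.29e-05). Wnt5b (chr6:119432531-119544347, minus strand), its closest relative, was at 8.81, 9.33, 10.04 and 9.76 CPM in cKO and 6.74, 6.16, 6.73 and 7.35 CPM in the controls. The Wnt5b groups did not overlap, and the difference was log2 0.49 (SE 0.09, edgeR adjusted p = 0.00298). Wnt3 (chr11:103774150-103817957, plus strand), a ligand of the beta-catenin branch, was at 5.16, 5.78, 4.66 and 5.44 CPM in cKO and 4.57, 3.60, 3.93 and 3.45 CPM in the controls. The lowest Wnt3 value in cKO lay just above control replicate 1, the highest control. Its log2 fold change was 0.44 (SE 0.13, edgeR adjusted p = 0.0378). The Wnt3 call was lost in 12 of the 18 alternatives, among them DESeq2 (adjusted p = 0.103), the replicate number as a block (edgeR adjusted p = 0.0629) and leaving out cKO replicate 1, 2 or 4 or control replicate 2, 3 or 4 (edgeR adjusted p = 0.0669 to 0.122).

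Per length, Wnt5b was the most abundant ligand in the controls, at 2.52 ± 0.231 FPKM (fragments scaled to transcript length and library depth, the authors' values; SD, n = 4), ahead of Wnt7b at 1.47 and Wnt3 at 1.25 FPKM. Wnt5a stood at 0.675 FPKM in the controls and 1.36 FPKM in cKO (means, n = 4). Wnt2b, a ligand known from the rim of the optic cup and its pigmented layer, was at 1.83, 1.60, 1.77 and 1.61 CPM in cKO and 1.198, 0.524, 1.122 and 1.28 CPM in the controls. The 4 cKO libraries of Wnt2b lay above the 4 controls, with log2 0.72 (95% limits 0.20 to 1.23), but its adjusted p was 0.0718 (edgeR) and it was called in none of the 18 alternatives. Wnt9a lay at log2 0.68 with the same separation (edgeR adjusted p = 0.0678). Wnt7b and Wnt4 had log2 values of -0.03 and -0.29, both with overlapping groups. Wnt11 had 5 to 8 counts per control library and 8 to 18 per cKO library, and Wnt7a had 3 to 9 and 5 to 10, so neither could be tested. Porcn, which attaches the lipid to Wnt proteins, was at 11.9 ± 0.736 CPM in cKO and 11.4 ± 1.05 CPM in the controls (SD, n = 4), at log2 0.06 with 95% limits of -0.12 to 0.25.

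Among the receptors, 3 Frizzled genes of low or middle level rose and the co-receptor gene Lrp5 fell. Of 14 receptor genes tested, 3 were higher, 1 lower and 10 not called (all genes: 8.35% higher, 3.46% lower), with a median of 0.07. Fzd6 (chr15:39006034-39038188, plus strand), known for its part in planar cell polarity, was at 20.9, 19.0, 17.9 and 18.7 CPM in cKO and 11.7, 13.4, 12.7 and 11.5 CPM in the controls. Each cKO library exceeded each control by a wide margin, and the log2 fold change was 0.63 (SE 0.08, edgeR adjusted p = 7.94e-05). Fzd1 (chr5:4753839-4758035, minus strand) was at 16.9, 15.04, 14.8 and 13.8 CPM in cKO and 12.7, 11.4, 12.7 and 11.2 CPM in the controls, at log2 0.34 (SE 0.09, edgeR adjusted p = 0.0173). Fzd10 (chr5:128600844-128604093, plus strand) was at 5.16, 4.66, 4.07 and 3.71 CPM in cKO and 2.77, 2.88, 3.37 and 3.06 CPM in the controls, at log2 0.54 (SE 0.14, edgeR adjusted p = 0.0222). The groups of both genes were separate but close, and the Fzd1 call held in 12 and the Fzd10 call in 7 of 18 alternatives. Both calls were lost in the male libraries alone (edgeR adjusted p = 0.0741 and 0.0973), without cKO replicate 1 and without control replicate 2 or 4, and that of Fzd10 also without cKO replicate 2 or control replicate 1 and with DESeq2 (adjusted p = 0.0596).

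Lrp5 (chr19:3584828-3686564, minus strand), the co-receptor also needed for retinal vessels, was at 84.7, 66.8, 91.4 and 97.0 CPM in cKO and 102, 103, 116 and 110 CPM in the controls. All 4 cKO libraries lay below the controls, cKO replicate 2 farthest, and the log2 fold change was -0.34 (SE 0.09, edgeR adjusted p = 0.0205). Without cKO replicate 2 it was -0.24 and still called, but with the male libraries alone it was -0.25 (edgeR adjusted p = 0.0595; 0.213 with sex as a covariate), and the call was also lost without control replicate 3 or 4 (edgeR adjusted p = 0.0697 and 0.0559). Its partner Lrp6 was at log2 -0.13 (95% limits -0.23 to -0.03, edgeR adjusted p = 0.0931).

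The most abundant receptors were not called. Fzd5, the main Frizzled of the neural retina and the highest receptor in the controls at 55.0 ± 1.75 FPKM (SD, n = 4), was at 338, 313, 345 and 372 CPM in cKO and 383, 367, 410 and 376 CPM in the controls. Only cKO replicate 4 reached into the control range of Fzd5, and its log2 value of -0.17 (edgeR adjusted p = 0.0777) was called with DESeq2 (adjusted p = 0.0275) and without cKO replicate 4 (edgeR adjusted p = 0.0225). Fzd3, at 45.1 FPKM in the controls, and the R-spondin receptor gene Lgr4, at 37.4 FPKM, had log2 values of 0.07 and -0.09. Fzd4, the receptor for the retinal vessel ligand Norrin, was at 4.68, 5.15, 5.05 and 5.87 CPM in cKO and 3.74, 4.19, 3.79 and 4.07 CPM in the controls, groups that did not overlap. At log2 0.39 its adjusted p was 0.0505 (edgeR), just outside the threshold, and it was called with no filter on low counts and without cKO replicate 1 (edgeR adjusted p = 0.0499 and 0.0456). The log2 values of the 10 uncalled receptors lay between -0.17 and 0.39.

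**Figure D2:**
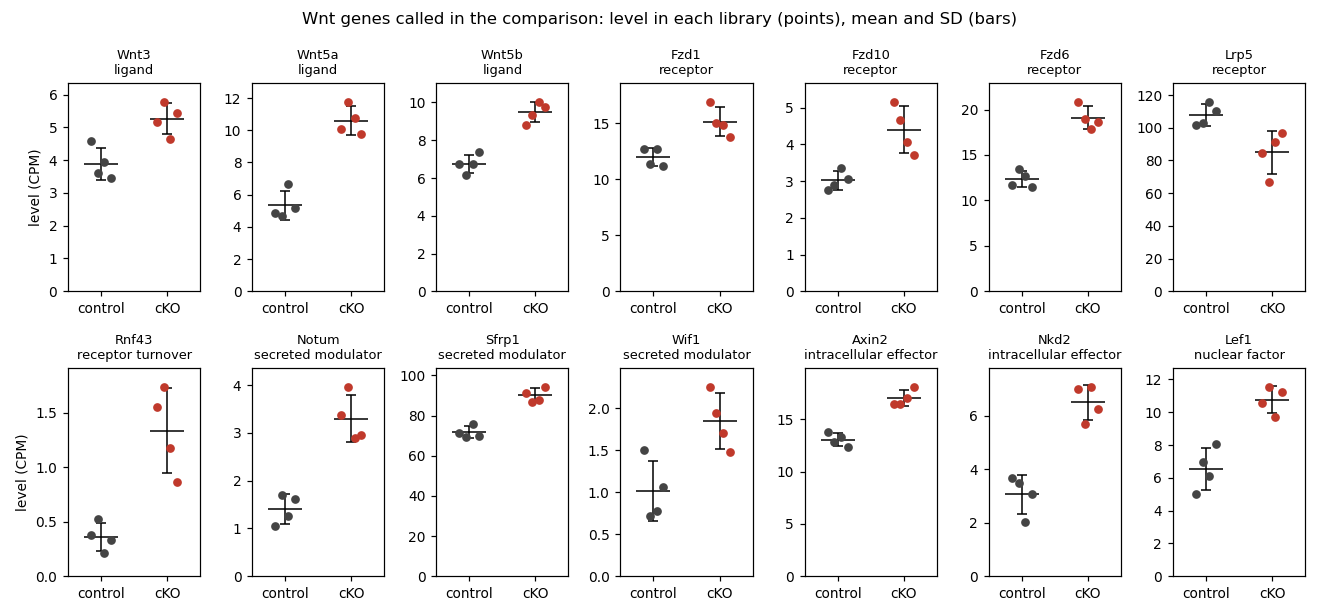
Level in CPM of the 14 called Wnt genes in each of the 4 control and 4 cKO libraries (points; linear axes from 0), with the mean and SD of each group. The groups are separate in 13 of the panels; in Wif1, control replicate 1 at 1.498 CPM lies just above cKO replicate 4 at 1.48 CPM.

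The receptor-removing enzymes behaved unequally. Rnf43 and Znrf3 are related membrane ubiquitin ligases that take Frizzled off the cell surface. Rnf43 (chr11:87662722-87735539, plus strand) had the largest fold of all tested members, from 5, 8, 3 and 6 counts in the control libraries to 29, 25, 18 and 14 in cKO, or 0.361 ± 0.129 and 1.34 ± 0.391 CPM (SD, n = 4). The difference came to log2 1.86 with an SE of 0.33 and 95% limits of 1.16 to 2.56 (edgeR adjusted p = 0.00139), with no overlap between groups, from a control level of only 0.0549 FPKM. Each Rnf43 control was under the minimum count of 10, so the gene passed the filter only through its cKO libraries. Its rank by fold is thus that of a gene tested only because it was higher in cKO. Znrf3 was at 19.99, 21.3, 16.7 and 19.0 CPM in cKO and 18.8, 18.9, 19.1 and 16.8 CPM in the controls. Its log2 value was 0.07 with 95% limits of -0.11 to 0.24. The ratio of Rnf43 to Znrf3 counts was 0.0455 to 0.0817 in cKO and 0.0110 to 0.0278 in the controls; the pair was chosen after its values were seen and the difference between the pair was not tested.

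Notum, Wif1 and Sfrp1, all secreted inhibitors that act on Wnt proteins, rose, whereas the most abundant secreted modulators were not called. Of the 8 such genes measured, 7 were tested. They had 3 higher, 0 lower and 4 not called (all genes: 8.35% higher, 3.46% lower) and a median of 0.33. Notum (chr11:120653788-120661175, minus strand), which strips the lipid from Wnt proteins, was at 3.39, 3.97, 2.89 and 2.97 CPM in cKO and 1.05, 1.70, 1.26 and 1.62 CPM in the controls. Each cKO library was above each control, at log2 1.21 (SE 0.19, edgeR adjusted p = 0.000571). Sfrp1 (chr8:23411502-23449632, plus strand), a Frizzled-related protein that binds Wnt proteins, was at 91.4, 86.8, 87.8 and 94.4 CPM in cKO and 71.6, 69.5, 76.0 and 69.6 CPM in the controls. This was a small but tight difference between separate groups, log2 0.33 with an SE of 0.05 (edgeR adjusted p = 0.000462). Wif1 (chr10:121033960-121100650, plus strand), another Wnt-binding inhibitor, was at 2.26, 1.95, 1.71 and 1.48 CPM in cKO and 1.498, 0.720, 0.772 and 1.06 CPM in the controls, groups that overlapped slightly. Its log2 fold change was 0.88 (SE 0.25, edgeR adjusted p = 0.0305), and the call was lost in 11 of 18 alternatives, among them DESeq2 (adjusted p = 0.0657), the male libraries alone (edgeR adjusted p = 0.122) and leaving out any cKO replicate from 1 to 3 or any control replicate from 2 to 4.

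Dkk3, a Dickkopf family member abundant in retina, was the highest of all 46 genes per length, at 435 ± 27.8 FPKM in the controls and 409 ± 17.7 FPKM in cKO (SD, n = 4). In cKO it was at 1315, 1366, 1353 and 1413 CPM and in the controls at 1387, 1462, 1565 and 1479 CPM, groups that overlapped at their edge, with log2 -0.11 (edgeR adjusted p = 0.251). Sfrp2, at 106 FPKM in the controls, was at log2 -0.15, with cKO replicate 2 lowest at 173 CPM (edgeR adjusted p = 0.364). Rspo2, an R-spondin that strengthens Wnt signalling through Lgr receptors, was at 3.55, 3.06, 3.61 and 2.47 CPM in cKO and 2.32, 3.34, 3.23 and 2.34 CPM in the controls, at log2 0.18 with overlapping groups. Sfrp4 was at log2 0.66 with 95% limits that include 0 and means under 1 CPM. Dkk1, the classical inhibitor of Lrp5 and Lrp6, had 2 to 6 counts per control library and 3 to 16 per cKO library and could not be tested.

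Among intracellular effectors the feedback genes Axin2 and Nkd2 rose and the core machinery was not called. Of 8 genes tested, 2 were higher, 0 lower and 6 not called (all genes: 8.35% higher, 3.46% lower), with a median of 0.00. Nkd2 (chr13:73818534-73847631, minus strand), which binds Dishevelled and dampens signalling, was at 6.99, 5.71, 7.08 and 6.24 CPM in cKO and 3.67, 3.47, 2.03 and 3.06 CPM in the controls. The groups were far apart, at log2 1.09 (SE 0.16, edgeR adjusted p = 0.000271). Axin2 (chr11:108920349-108950783, plus strand), the inducible Axin and a common readout of beta-catenin activity, was at 16.5, 16.4, 17.0 and 18.1 CPM in cKO and 13.8, 12.8, 13.3 and 12.4 CPM in the controls. The replicates were close to each other and the groups separate, at log2 0.38 (SE 0.07, edgeR adjusted p = 0.00245), a call that held in 17 of 18 alternatives. The exception was the test against control replicates 1 and 3 alone, at log2 0.33 (edgeR adjusted p = 0.0611).

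Ctnnb1, which encodes beta-catenin, was at 1250, 1361, 1245 and 1215 CPM in cKO and 1260, 1242, 1365 and 1270 CPM in the controls. The groups overlapped throughout, and the log2 value was -0.02 with 95% limits of -0.14 to 0.11, a sign that turned with scaling to library size alone (0.0046). Dvl2, a Dishevelled, was at 52.4, 49.0, 52.1 and 58.0 CPM in cKO and 58.1, 64.4, 60.0 and 58.5 CPM in the controls. All 4 cKO libraries of Dvl2 were below the controls, barely so in cKO replicate 4, at log2 -0.19 (edgeR adjusted p = 0.0687, or 0.0153 without cKO replicate 4; DESeq2 adjusted p = 0.0476). Nkd1 was at log2 -0.18 (edgeR adjusted p = 0.0811; 0.00842 without cKO replicate 4), opposite in sign to Nkd2. The Nkd2 to Nkd1 count ratio was 0.0982 to 0.130 in cKO and 0.0315 to 0.0588 in the controls, a pair chosen after its values were seen and not tested. Axin1, Dvl1 and Dvl3 lay between log2 -0.04 and 0.05.

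The nuclear factor gene Lef1 rose and its relatives were not called. Of 4 genes tested, 1 was higher, 0 lower and 3 not called (all genes: 8.35% higher, 3.46% lower), with a median of 0.15. Lef1 (chr3:131110471-131224356, plus strand) was at 10.6, 11.6, 9.71 and 11.2 CPM in cKO and 5.02, 6.94, 6.10 and 8.08 CPM in the controls, so that the highest control stayed below the lowest cKO library. The log2 fold change was 0.71 (SE 0.13, edgeR adjusted p = 0.00144). Against control replicates 1 and 3 alone it was 0.95 and against 2 and 4 alone 0.52, both called. Tcf7 was at 4.46, 5.64, 5.58 and 3.83 CPM in cKO and 3.52, 3.99, 2.67 and 3.56 CPM in the controls, with cKO replicate 4 inside the control range, at log2 0.49 (edgeR adjusted p = 0.0638; 0.0264 without cKO replicate 4). Tcf7l2, the most abundant of the 4 at 2.03 FPKM in the controls, was at 16.4, 12.3, 17.1 and 16.9 CPM in cKO and 21.5, 15.6, 17.5 and 17.4 CPM in the controls, at log2 -0.19 (edgeR adjusted p = 0.333). Tcf7l1, mostly a repressor of Wnt targets, was at log2 -0.36 (edgeR adjusted p = 0.275). The library cKO replicate 2 was the lowest for both Tcf7l1 (2.02 CPM) and Tcf7l2.

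**Figure D3:**
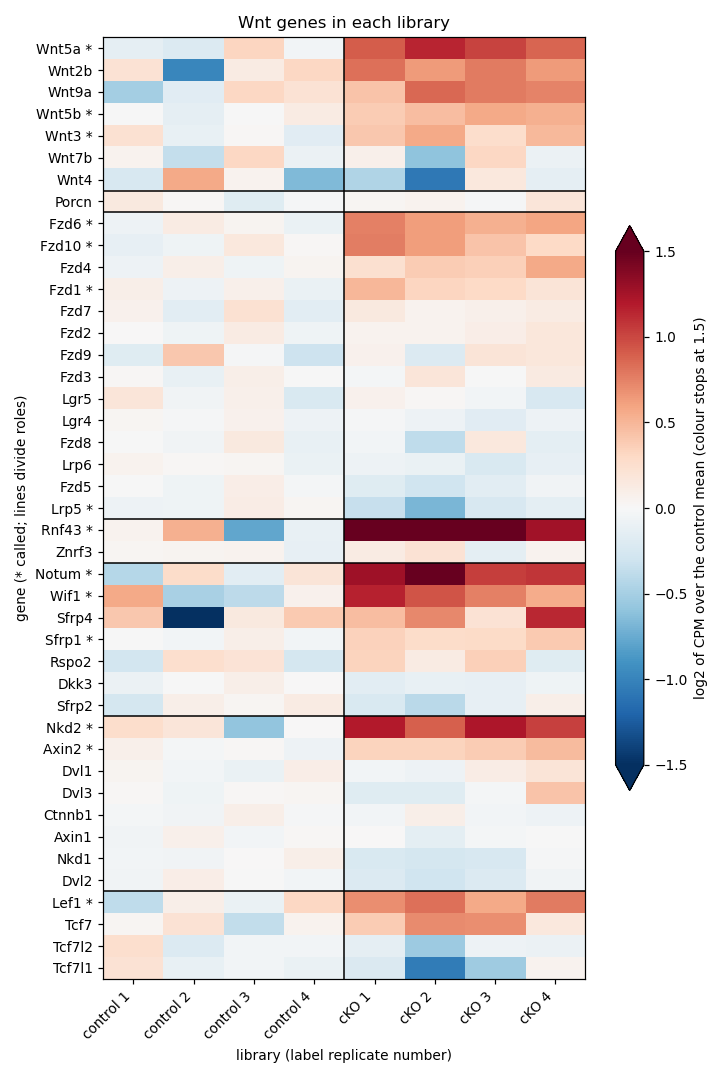
Each of the 43 tested Wnt genes (rows, by role) in each library (columns), as the log2 of its CPM over the control mean; the colour stops at 1.5 and an asterisk marks the 14 called genes. The rises of Wnt5a, Fzd6, Rnf43, Notum, Nkd2 and Lef1 are seen in all 4 cKO libraries, and Ctnnb1 is near 0 in all 8.

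Read across roles, the genes widely used as targets or feedback inhibitors of beta-catenin divided. Axin2, Nkd1, Nkd2, Notum, Rnf43, Znrf3, Lef1, Tcf7 and Lgr5 are a set listed with the values known. Of them 5 of 9 were higher, 0 lower and 4 not called. Rnf43, among the 5, passed the count filter only through its cKO libraries. The share higher was 8.35% over all genes and 12.9% over those under 20 CPM in the controls, as all but Nkd1 were. A set listed in this way cannot be judged against these shares. Lgr5, a stem cell marker and target gene in other tissues, was at 7.04, 6.82, 6.56 and 5.68 CPM in cKO and 7.64, 6.48, 7.08 and 5.74 CPM in the controls, at log2 -0.04 with 95% limits of -0.29 to 0.21. The 5 that rose had control levels of 0.0549 to 2.35 FPKM, and of the 4 not called, Lgr5 at 0.648, Tcf7 at 1.30 and Znrf3 at 2.31 FPKM lay within that range and Nkd1 at 14.3 FPKM above it.

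The rises were mostly in genes with low control levels. Of the 13 higher members, 12 had under 5 FPKM in the controls, the exception being Sfrp1 at 16.2 FPKM. Rnf43, among the 12, passed the count filter only through its cKO libraries, so at its control level only a rise could be tested. Of the 11 members over 10 FPKM, 1 was higher (Sfrp1) and 1 lower (Lrp5). Shares over all genes were computed by counts and not by FPKM. In counts, 12 of the 28 tested members under 20 CPM in the controls were higher, or 42.9%, where 12.9% of all genes of that level were higher. Of the 15 members at 20 CPM or more, 1 was higher and 1 lower, against 4.43% and 4.87% of all genes of that level. In bulk tissue, more cells of a type and more RNA per cell cannot be told apart.

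**Figure D4:**
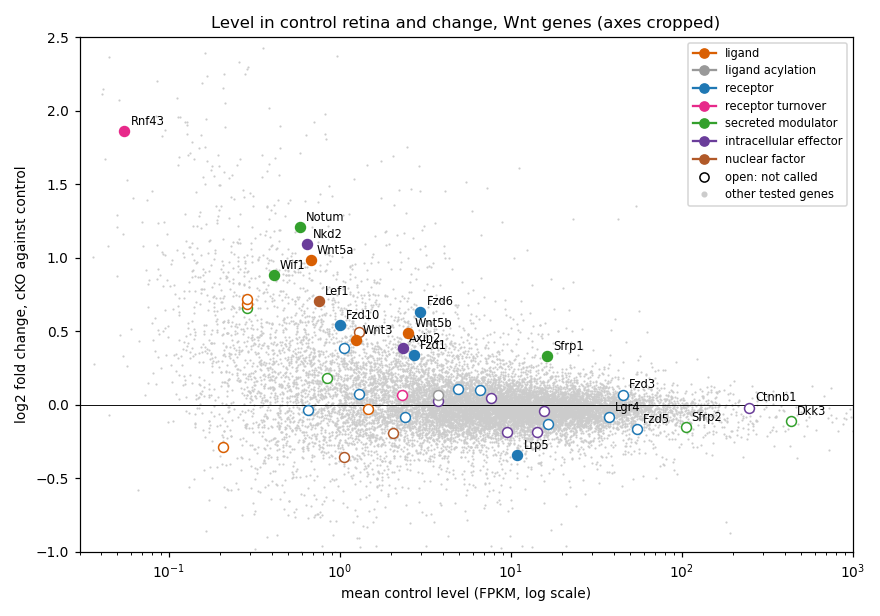
Mean control level in FPKM (log axis) against the log2 fold change for the tested Wnt genes (coloured by role, filled where called) and all other tested genes (grey; axes cropped). From Rnf43 at 0.0549 FPKM to Wnt5b at 2.52 FPKM many Wnt genes lie above 0, whereas Ctnnb1, Dkk3, Sfrp2 and Fzd5 lie between log2 -0.17 and -0.02.

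Other genes of the pathway outside the named families were counted in the same way. Of 67 listed genes 61 were tested, with 10 higher, 3 lower and 48 not called, or 21.3% called, and a median of 0.04. Over all genes tested 11.8% were called, 8.35% higher and 3.46% lower, and the lists below are small. The genes for ligand secretion and handling had 4 higher of 11 tested, and those for co-receptors and receptor partners 2 higher and 1 lower of 9. The destruction complex and its kinases had 2 higher and 1 lower of 16, the nuclear partners of beta-catenin 2 higher of 11, and planar polarity genes 0 higher and 1 lower of 14. With the male libraries alone 3 were higher and 0 lower over all 61, and the 3 calls that held in each alternative were Gpc3, Ror2 and Frzb.

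Ror2, a receptor tyrosine kinase that binds Wnt5a, was at 3.87, 4.39, 4.20 and 5.56 CPM in cKO and 1.95, 1.96, 1.89 and 1.28 CPM in the controls. Each cKO library was above each control, at log2 1.36 (SE 0.18, edgeR adjusted p = 0.000116). Its relative Ror1 moved the other way, from 25.3, 26.3, 27.8 and 28.3 CPM in the controls to 22.03, 21.8, 20.6 and 22.9 CPM in cKO, at log2 -0.30 (SE 0.06, edgeR adjusted p = 0.00492). The Ror1 groups were separate, and the call was lost in the male libraries alone, with sex as a covariate and against control replicates 1 and 3 alone (highest adjusted p 0.0745). Frzb, a further secreted Frizzled-related protein, was at 3.01, 3.06, 3.15 and 3.71 CPM in cKO and 1.35, 0.851, 1.75 and 1.23 CPM in the controls, at log2 1.32 (SE 0.20, edgeR adjusted p = 0.000393). Gpc3, a glypican that binds Wnt proteins at the cell surface, was at 42.9, 43.02, 40.3 and 43.2 CPM in cKO and 30.7, 32.3, 26.9 and 29.3 CPM in the controls, at log2 0.51 (SE 0.06, edgeR adjusted p = 5.79e-05). In both Frzb and Gpc3 the 4 cKO libraries were above the 4 controls.

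The remaining higher calls were Dact2 at log2 1.11, Cpz at 0.88, Dkkl1 at 0.87, the Norrin gene Ndp at 0.56, Dact1 at 0.39, Ctnnbip1, an inhibitor of beta-catenin binding to Tcf factors, at 0.20, and the corepressor gene Tle4 at 0.16. The lower ones were Amer1, which brings the destruction complex to the membrane, at -0.22 and the planar polarity effector gene Intu at -0.19. Each of these 9 calls was lost in 5 or more of the 18 alternatives. Dact2, at 7, 3, 7 and 13 counts in the controls, passed the count filter only through its cKO libraries. Ndp and Amer1, like Gpc3, lie on the X chromosome, and cKO replicates 2 and 3 were the only libraries not male. In the male libraries alone the Ndp and Amer1 calls were lost (edgeR adjusted p = 0.293 and 0.176), and Gpc3 stayed called.

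Markers of other cell types in the same libraries were as follows. Over all genes tested 8.35% were higher and 3.46% lower, and 12.9% of those under 20 CPM in the controls were higher. The marker lists are short beside these shares. The 7 ciliary margin genes listed summed to 178 to 209 CPM in cKO and 91.7 to 105 CPM in the controls. Of 6 tested, 4 were higher (Zic1, Wfdc1, Mecom and Ccnd2), and Bmp4 and Otx1 were not called (edgeR adjusted p = 0.0824 and 0.457). Most of the sum was Zic1, with means of 134 CPM in cKO and 76.1 CPM in the controls, and Ccnd2, with 38.0 and 11.8 CPM. Mesenchyme markers summed to 27.9 to 78.4 CPM in cKO and 33.3 to 62.6 CPM in the controls. Of 8 tested, the transcription factor genes Twist1 and Foxc1 were higher, and the collagen genes Col1a1, Col1a2 and Col3a1 were not called, at log2 0.17, 0.21 and 0.72. Twist1 and Foxc1, at most 0.196 and 0.655 CPM in the controls, passed the count filter through their cKO libraries. Microglia markers summed to 41.1 to 49.4 CPM against 30.3 to 36.5 CPM, with 4 of 7 higher. Pigment epithelium markers, at 11.1 to 24.2 CPM against 10.9 to 36.9 CPM, and lens markers, at 3.41 to 9.40 CPM against 2.34 to 12.1 CPM, overlapped between the groups with 0 called, as did erythroid markers at 90.9 to 867 CPM against 160 to 1284 CPM. Listed markers at 0 were Lum in cKO replicate 1, Twist1 in control replicate 1, Cryaa in cKO replicate 4 and control replicates 3 and 4, and Crybb1 in control replicate 3. The endothelial list summed to 270 to 308 CPM against 320 to 349 CPM, nearly all of it Kdr, which retinal progenitors also express, with Cldn5 higher and Kdr lower of 3 tested. The part of these cells in the Wnt gene differences was not tested.

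Some counts may include reads from overlapping genes, and the sources used here do not say if the counting used strand. In GENCODE M21, 5 of the 14 called genes share exon bases with a gene on the other strand: Notum, Wnt5a, Fzd6, Lef1 and Axin2. The shared part is 29.4% of the exon bases of Notum, with Notumos, 13.7% of Lef1, 4.58% of Wnt5a, 3.80% of Axin2 and 3.15% of Fzd6. The gene overlapping Axin2, Gm11670, had 129 counts over the 8 libraries against 1886 for Axin2, and its own log2 value was 0.67. A second gene overlapping Notum, Myadml2os, shares 8.72% of the Notum exon bases and had 42 counts against 299 for Notum. The part of such reads in these calls was not tested.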

How the data were processed

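RNA was measured in 4 cKO and 4 control libraries of E16.5 peripheral retina; per the labels' protocols, 1 μg of column-purified total RNA entered a standard Illumina library. Per the submitters' processing notes, the authors aligned reads with Novoalign 2.08.01 to mm10 and used DESeq2. The deposited count columns hold unnormalized whole numbers, with a lowest row sum of 18. The authors' FPKM values, per gene length and depth per the file headers, were used to compare levels between genes. The authors' deposited table also has a log2 ratio, with the sign found here for all 14 called members, and an adjusted p score on an unnamed scale, which was not used further. Which counter and annotation release they used: not given in the sources used here.

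Counts were tested with edgeR 4.0.16 (R 4.3.3): TMM, filterByExpr with a minimum count of 10, glmQLFit and glmQLFTest without covariates, Benjamini-Hochberg adjustment over 15014 genes, called under 0.05. The filter left out 1082 genes, among them 3 members. Standard errors and 95% limits come from the quasi-likelihood F statistic. Positions and overlaps are from GENCODE M21 (mm10), matched by identifier for all 46 members. The procedure was run on simulated counts with known changes. These were drawn independently for each library, without embryo sex or a division of the controls, so that run does not check such effects. The alternatives were DESeq2 1.42.0, other scalings, no filter, leaving out libraries, a replicate block, embryo sex and lens content; 2 on the division of the controls were chosen after seeing the data. Given by library were called members and, in each role, the most abundant member and the uncalled one with the largest difference at 1 CPM or more; from the other pathway genes, the 4 with the smallest p. Other values by library were added after they were seen. The members and lists were chosen with earlier results of these data known. Some marker genes are not reported here, and the lists were counted and summed without them.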

Additional observations from a re-analysis of the deposited data

Results flagged for a closer look

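In 5 of 76 groups of 4 libraries examined for the genes named, 1 library stood apart from the other 3 by more than Dixon's 95% value; chance alone gives about 1 in 20. Tcf7l2 was at 12.3 CPM in cKO replicate 2, and the other cKO libraries were at 16.4 to 17.1 CPM. Znrf3 was at 16.8 CPM in control replicate 4, with the other controls at 18.8 to 19.1 CPM. Ror2 was at 1.28 CPM in control replicate 4, with the others at 1.89 to 1.96 CPM. Gpc3 was at 40.3 CPM in cKO replicate 3, with the others at 42.9 to 43.2 CPM. Ctnnbip1 was at 83.1 CPM in control replicate 2, with the others at 85.1 to 85.4 CPM.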

How the results depend on the processing

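Over 18 alternatives the 14 calls of Wnt genes kept their direction throughout, and 47 of 252 values no longer passed. For the other pathway genes 95 of 234 values no longer passed. The count of higher Wnt genes, 13, was 8 against control replicates 1 and 3 alone and 9 to 13 without 1 library; the lower count, 1, was 3 with DESeq2, 0 in the male libraries alone, with sex as a covariate and against either pair of controls, and 0 to 4 without 1 library. Controls 1 and 3 differ from 2 and 4 in mitochondrial rRNA (13.7% and 13.5% of counts against 8.72% and 8.19%).

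For the other pathway genes, 10 higher became 3 in the male libraries alone, with sex as a covariate and against control replicates 1 and 3 alone, 5 without the lens libraries and against control replicates 2 and 4 alone, and 5 to 8 without 1 library. Their 3 lower became 0 with the male libraries alone or sex as a covariate, 1 with library size alone, the replicate block, without the lens libraries and against either pair of controls, and 1 to 8 without 1 library. Over all genes, 1253 higher became 800 in the male libraries alone, 795 with sex as a covariate and 696 against control replicates 1 and 3 alone. The 520 lower became 273 with library size alone (where 82.5% of calls were higher, against 70.7%), 255 in the male libraries alone, 246 with sex as a covariate, 323 without the lens libraries, 243 and 235 against the control pairs, and 329 to 667 without 1 library. Fewer libraries were fitted in several of these; otherwise the cause was not tested. Ctnnb1, not called, changed sign with library size alone (0.0046), without cKO replicate 4 or control replicate 3 (0.0010 and 0.011, in a range of -0.0543 to 0.011 without 1 library) and against control replicates 2 and 4 alone (0.014).

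Same-numbered libraries correlated at 0.228, -0.0689, -0.00404 and 0.177. The values for replicates 1 and 4 were the highest of all pairs of a cKO and a control library. The cKO replicates 2 and 3 did not correlate best with their own number. Whether any replicates were paired cannot be told from these values. With the replicate block, 12 Wnt genes were higher and 1 lower. Rnf43, with 3 to 8 counts per control library, is the least precisely measured call.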
